A study of Homo sapiens with 4 samples.

Results

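Actin crosslinkers, myosins and spectrins are described here as the genes whose symbol in the authors' m6A peak lists begins with SPTA or SPTB, begins with ACTN, MYO, MYH, TLN, TNS, DIAPH or PDLIM and a digit, begins with FLN and ends in A, B or C, or is PLEC, MACF1, VCL or DST, with at least 1 listed peak in either list. The rule found 35 genes among the 8220 genes with a listed peak. They held 222 of the 15472 peaks listed for heated cells and 162 of the 14367 peaks listed for control cells. The genes were chosen by symbol and selected on having a listed peak in these same data, so their presence in the lists is a description and no finding. The RefSeq gene table holds 73 protein-coding symbols that match the same pattern, and 38 of these had no listed peak, among them FLNC, the muscle isoforms ACTN2 and ACTN3, the sarcomeric MYH1, MYH2 and MYH7, and the erythroid spectrin SPTB.

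The study mapped N6-methyladenosine (m6A), a common internal modification of mRNA, in CaSki cells, an epithelial line from a human cervical carcinoma. Heated cells spent 60 min at 42 °C, and control cells stayed at the culture temperature of 37 °C. Each condition has 1 library of RNA pulled down with an m6A antibody kit and 1 input library without antibody, all from the same line and culture medium. A peak is a region where antibody-bound fragments pile up above background. The authors give each peak a fold enrichment over that background and a score that is larger for a smaller p-value of the peak, from 50 to a ceiling near 3100. The scaling between the lists is not given, so folds and scores of the conditions are set side by side and not read as a change. Positions are 1-based on hg19. With 1 antibody library per condition no value below has a replicate check, and none has a p-value.

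Actin filaments are tied into bundles and nets by alpha-actinins and filamins, and slid past each other by class II myosins, while the unconventional myosins carry vesicles and membranes along them. Spectrins form a flexible lattice under the plasma membrane, and plakins join actin to intermediate filaments and microtubules. Talins, vinculin and tensins connect the filaments to integrins at focal adhesions. Some of these proteins, such as filamins and spectrins, are long chains of repeated domains, and many genes of the set hold many short coding exons. In mRNA, m6A is known to lie mainly near stop codons and in long exons, and it bears on how long an mRNA lasts and how it is translated.

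Of the 35 genes, 29 had a peak in both lists, 5 in the heat list only (FLNA, MYO5A, PDLIM2, PDLIM7 and TLN1) and 1 in the control list only (DIAPH3). As shares of the set these are 82.9%, 14.3% and 2.86%, beside 73.4%, 13.2% and 13.5% of all genes with a listed peak. The heat-only share is therefore near that of the whole lists, and the control-only share below it. Absence from a list can mean a signal under the caller's threshold or a peak that was numbered but not listed. Input RNA was not analysed here, so more methylation of a transcript and more of the transcript cannot be told apart, and in bulk RNA fewer cells and less RNA per cell cannot be told apart.

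The clearest feature of the set was many peaks per gene, with more of them in the heat list. The median was 5 peaks over the 34 genes with a heat peak and 4 over the 30 with a control peak, against 1 and 1 over all genes with a peak in that list. Of the 35 genes 22 (62.9%) had 5 or more peaks over both lists, as did 23.9% of all genes. Among the 29 genes in both lists 18 (62.1%) had more peaks under heat, 6 (20.7%) fewer and 5 (17.2%) equally many, where 25.0%, 20.6% and 54.3% of the 6030 genes in both lists did so. Among genes with 5 or more peaks, 15 of 22 (68.2%) had more under heat, beside 44.4% of all such genes, and 5 had fewer, beside 30.9%. A surplus of at least 3 heat peaks was found in 8 of these 22 (36.4%), beside 12.1%, and in 8 of the 29 (27.6%), beside 3.91%. A gene in both lists needs 5 or more peaks for such a surplus, so the 3.91% includes genes that could not reach it. Beyond that cut genes were not matched for their number of peaks, which ran up to 40 in the set (SPTBN1). Whether the surplus exceeds that of other genes with as many peaks was not tested. A deficit of at least 3 was found in 1 of the 29, 3.45% beside 0.978%. The balance depended on the fold of the peaks. Restricted to peaks with a fold enrichment above 36.5, the median of both lists pooled, the set had 8 fewer heat than control peaks where it had 60 more before, and 3 genes with more against 10 with fewer. Over all genes that restriction gave 13.6% with more and 26.9% with fewer.

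**Figure D1:**
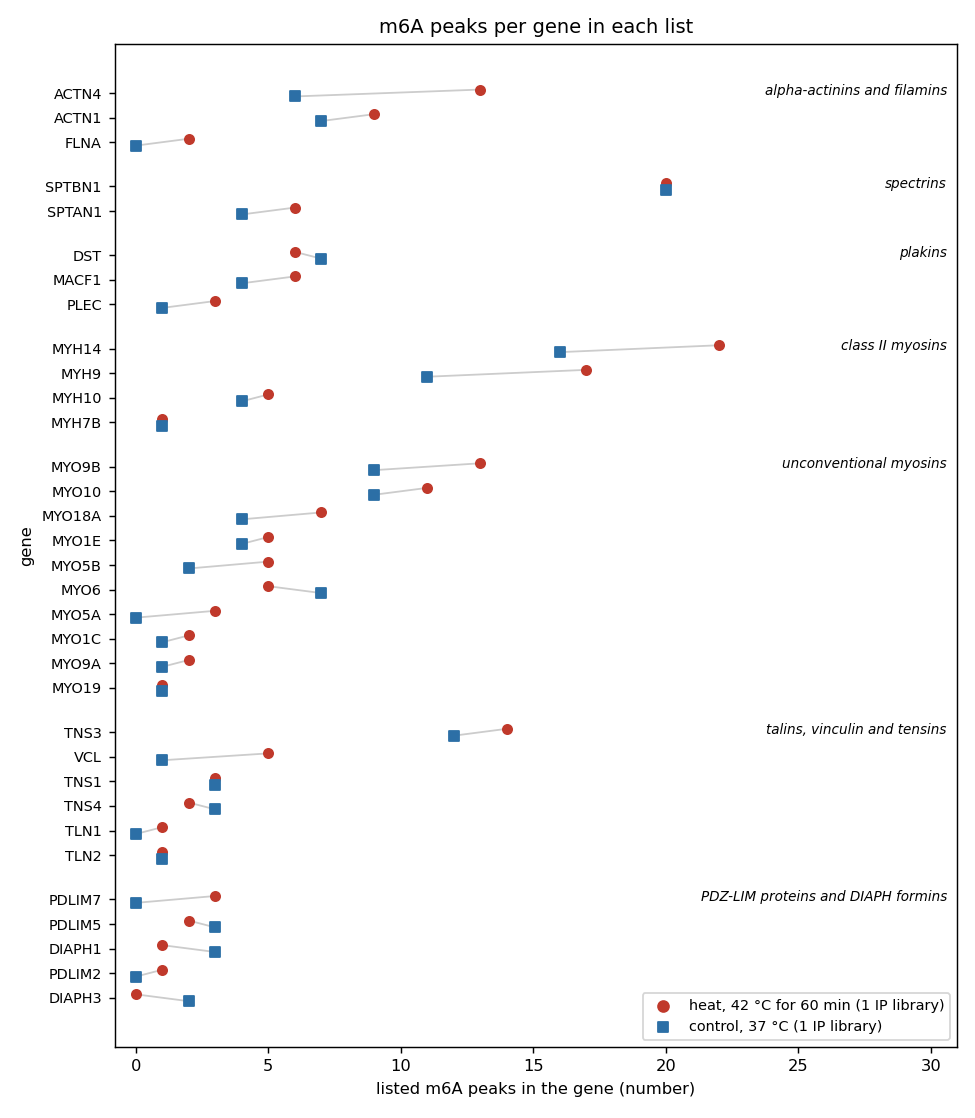
Number of listed m6A peaks (horizontal axis) in the genes reported here (rows, by family), with a red circle for the heat library and a blue square for the control library. ACTN4 has 13 heat and 6 control peaks, SPTBN1 has 20 in each list, and MYO6 lies in the other direction, with 5 heat and 7 control peaks.

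Alpha-actinins and filamins are the dimers that crosslink actin. FLNA, a filamin that also binds membrane receptors, was listed in heat only, at chromosome X, 153588358 to 153588955 (fold 10.4, score 122) and 153599241 to 153599729 (fold 31.2, score 113). Between the flanking listed control peaks 9 control peak numbers were not listed, so a weaker or filtered control peak there cannot be told apart from none. ACTN4, a non-muscle alpha-actinin, had 13 heat and 6 control peaks. All 6 control regions were in the heat list with the same boundaries. Read along the strand that RefSeq gives, the first 2 were at the score ceiling in both lists, at chromosome 19, 39138267 to 39138547 with folds of 65.0 in heat and 78.8 in control, and 39191642 to 39191761 with folds of 36.9 and 53.7. Its 7 heat-only peaks had folds of 6.19 to 26.3, and the last of them, 39219914 to 39222223, was the longest region of the gene at 2310 bases. ACTN1, its close relative, had 9 heat and 7 control peaks, and all 7 control regions had an identical heat partner. Its region with the highest scores lay at chromosome 14, 69392275 to 69392389, with scores of 3227 in heat and 3156 in control and folds of 32.3 and 49.7.

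Spectrins form long tetramers of alpha and beta chains. SPTBN1, the beta chain of the common non-erythroid spectrin, had 20 peaks in each list, which made it the gene with the second-highest number of peaks over both lists in the whole series. In each list 17 were shared and 15 had identical boundaries. Its region of highest fold, chromosome 2, 54876752 to 54877126, had a fold of 105 in heat and 143 in control at the score ceiling in both. Some shared regions had very unequal folds: 54884959 to 54885183 had a fold of 10.3 with a score of 111 in heat and a fold of 71.6 with a score of 1429 in control, while 54893052 to 54893225 had a fold of 38.5 with a score of 751 in heat and a fold of 12.3 with a score of 107 in control. SPTAN1, the alpha chain that pairs with it, had 6 heat and 4 control peaks with 2 shared. Its strongest control peak, 131395488 to 131395944 on chromosome 9 (fold 65.9, score 1537), had no heat partner.

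Plakins had few peaks with high folds. Their median fold was 54.6 over 15 heat peaks and 59.9 over 12 control peaks, the highest median of the 7 families in each list. PLEC, which ties keratin filaments to hemidesmosomes and actin, carried the longest region of the set, 7249 bases at chromosome 8, 144989315 to 144996563, with identical boundaries in both lists, the score ceiling in both and folds of 57.2 in heat and 80.1 in control. It had 2 further heat-only peaks, with folds of 8.81 and 29.7. DST, whose epithelial isoform anchors keratin at hemidesmosomes, had 6 heat and 7 control peaks with 5 shared. A region of 2730 bases, chromosome 6, 56482784 to 56485513, had a fold of 34.0 in heat and 156 at the score ceiling in control. MACF1, which crosslinks microtubules and actin, had 6 heat and 4 control peaks, and all 4 control regions were shared. The fold of its region from 39852859 to 39854330 on chromosome 1 was 95.1 in heat and 29.3 in control.

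Class II myosins held 45 heat and 32 control peaks over 4 genes. MYH9, MYH10 and MYH14 encode the heavy chains of the 3 non-muscle myosin II motors. MYH9 had 17 heat and 11 control peaks, with 9 shared, all with identical boundaries. Of its heat peaks 8 and of its control peaks 6 were at the score ceiling, more than in any other gene of the set. These lay on the 3′ side of its listed regions, from 36677323 to 36697103 on chromosome 22, with folds of 27.8 to 62.3 in heat and 30.7 to 60.9 in control. The peak from 36694965 to 36695088, with a fold of 53.5 and the ceiling score in heat, had no control partner, the only single-list peak of the 35 genes at the ceiling. Between the listed control peaks that flank it 1 control number was not listed, so a weaker or filtered control peak there cannot be told apart from none. The other 7 heat-only peaks of MYH9 had folds of 7.13 to 29.3. MYH14 had 22 heat and 16 control peaks, of which 14 were shared with identical boundaries. Its scores were lower: none reached the ceiling, and the best region, 50784851 to 50785099 on chromosome 19, scored 1098 with a fold of 68.0 in heat and 547 with a fold of 41.6 in control. MYH10 had 5 heat and 4 control peaks with 2 shared, and its best scores were 84.9 in heat and 177 in control. MYH7B, related to the sarcomeric myosins, had 1 peak in each list without overlap, from 33543638 to 33543810 on chromosome 20 with a fold of 66.9 in heat and from 33583139 to 33583381 with a fold of 27.6 in control.

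**Figure D2:**
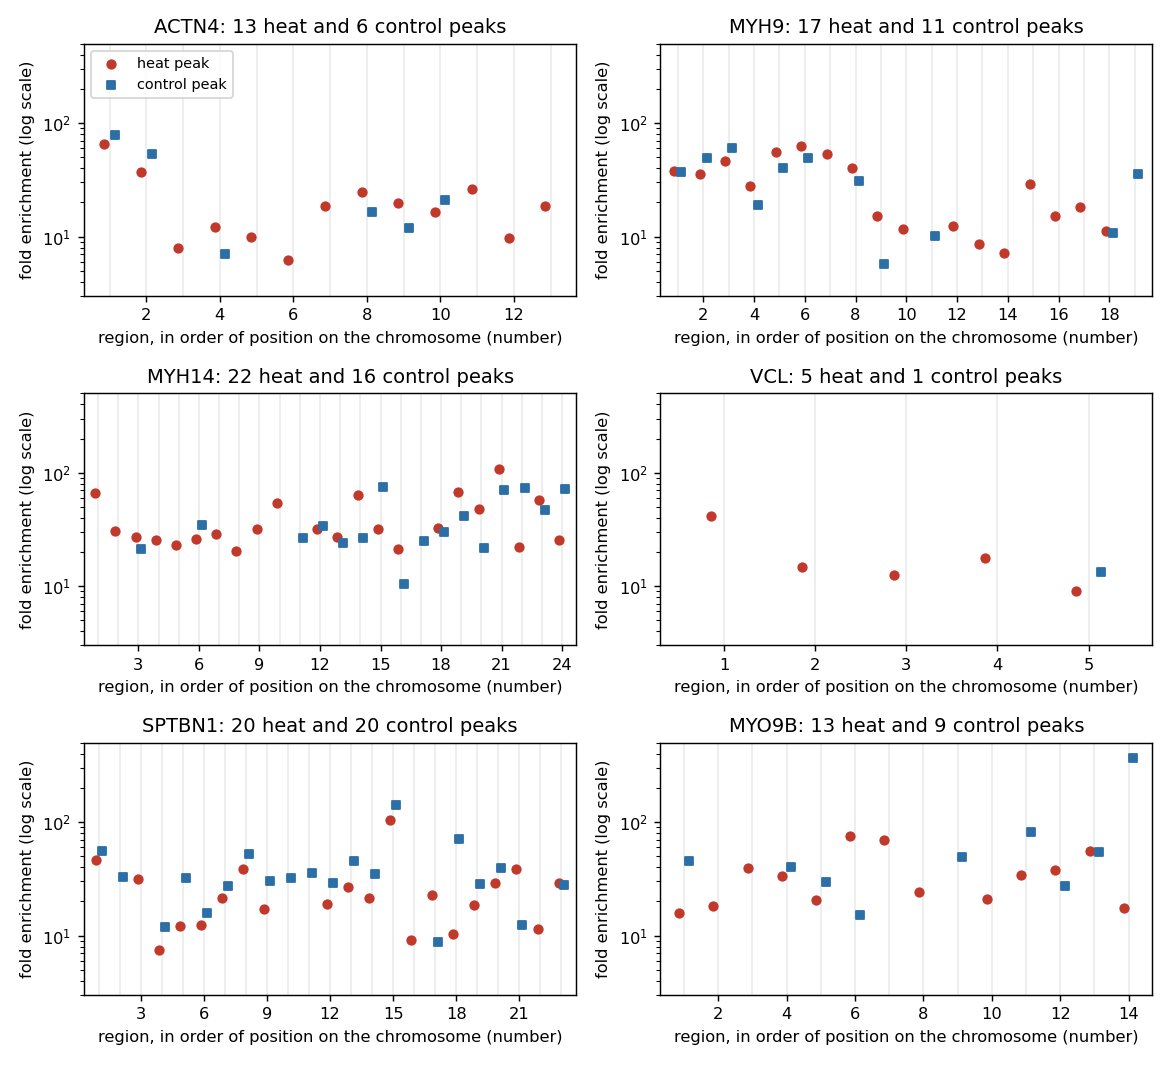
Fold enrichment (vertical log axis) of each listed region of 6 genes, numbered along the chromosome (horizontal axis), with red circles for heat peaks and blue squares for control peaks; a region in both lists has both symbols. ACTN4 shows heat-only regions of low fold beside shared ones, VCL is shared in 1 of its 5 heat regions, MYH9 shows shared regions of high fold at low numbers, and SPTBN1 is shared in 17 of its 20 regions in each list.

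Unconventional myosins made up 10 genes with 54 heat and 38 control peaks, of which 31 in each list were shared. MYO9B, a myosin with a domain that switches off a small GTPase, had 13 heat and 9 control peaks with 8 shared. Its last region towards the 3′ end, 17322456 to 17324093 on chromosome 19, had the ceiling score and a fold of 370 in control, the highest control fold of the family, and a score of 848 with a fold of 17.5 in heat. Another shared region of the same gene, 17283568 to 17283772, had a fold of 75.0 with a score of 841 in heat and a fold of 15.3 with a score of 52.2 in control. Restricted to folds above 36.5, MYO9B had 1 heat peak fewer than control peaks. MYO10, the motor of filopodia, had 11 heat and 9 control peaks with 7 shared, and its region of 876 bases at 16701072 to 16701947 on chromosome 5 was at the ceiling in both lists with folds of 45.6 in heat and 83.0 in control. MYO18A, a myosin linked to the Golgi, had 7 heat and 4 control peaks, and each control region had an identical heat partner. Its longest region, 27492960 to 27494039 on chromosome 17, was at the ceiling in both lists, with folds of 40.4 in heat and 118 in control.

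MYO6, the myosin that moves towards the minus end of actin, stood apart in its folds. It had 5 heat and 7 control peaks, every heat peak was shared, and its median fold was 116 in heat and 52.6 in control. A region of 79 bases, 76600945 to 76601023 on chromosome 6, had a fold of 229 in heat and 65.4 in control. MYO5B and MYO5A, transporters of endosomes and other vesicles, were among the weaker genes. MYO5B had 5 heat and 2 control peaks with 1 shared, and 4 heat-only peaks with folds of 18.6 to 52.8. MYO5A was listed in heat only, with 3 peaks on chromosome 15 from 52605443 to 52646211 whose scores, 53.2 to 60.8, lay just above the list's lowest score of 50. Between the control peaks that flank them 23 numbers were not listed. MYO1E had 5 and MYO1C 2 heat peaks, against 4 and 1 control peaks, and MYO9A had 2 heat peaks and 1 control peak. MYO19, the myosin of mitochondria, had the same single region in both lists, 34851477 to 34852250 on chromosome 17, with a fold of 32.2 in heat and 128 in control.

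At focal adhesions, talins, vinculin and tensins held 26 heat and 20 control peaks over 6 genes. VCL, vinculin, which strengthens the bond between talin and actin, had 5 heat peaks and 1 control peak. The shared region, 75873942 to 75874145 on chromosome 10, was weak in both lists, with a fold of 9.08 and a score of 63.3 in heat and a fold of 13.4 and a score of 55.0 in control. The 4 heat-only peaks had folds of 12.4 to 41.5 and scores of 56.5 to 250. TLN1, the main talin that activates integrins, was listed in heat only with 1 peak at chromosome 9, 35711592 to 35711789 (fold 23.4, score 279). TLN2, its relative, had 1 heat peak, 62994965 to 62995047 on chromosome 15 (fold 15.8, score 53.1), and 1 control peak of 1173 bases at 63132681 to 63133853 (fold 35.4, score 354). They did not overlap.

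Tensins, which bind the tails of integrins, were mostly shared. TNS3 had 14 heat and 12 control peaks, 11 of them shared, and its 3′-most region was at the ceiling in both lists, with folds of 61.0 in heat and 62.9 in control. The heat boundaries of that region were 47314752 to 47317982 on chromosome 7 and the control boundaries 47314757 to 47318319, so that they differed by 337 bases at the far end, the widest gap among the shared regions. TNS1 had 3 peaks in each list, all shared. Its 3′-most region, starting at 218667478 in heat and 218667452 in control on chromosome 2 and ending at 218669326 in both, had the highest fold of the 35 genes in each list, 244 in heat and 421 in control. TNS4 had 2 heat and 3 control peaks, both heat peaks shared, with a fold of 112 in heat and 132 in control in its longest region.

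PDZ-LIM proteins, adaptors that bind alpha-actinin at stress fibres, and the DIAPH formins, which nucleate actin filaments, made up 5 genes with 7 heat and 8 control peaks, and 4 and 5 of these were in a single list. PDLIM7 was listed in heat only with 3 peaks on chromosome 5, of which 176916772 to 176917594 was the best by score (1052, fold 22.2). Between its flanking control peaks 13 numbers were not listed. PDLIM2 had 1 heat peak, with a fold of 56.5 and a score of 400, and no control peak. PDLIM5 had 2 heat and 3 control peaks, and in its region 95496767 to 95497185 on chromosome 4 the fold was 20.1 in heat and 107 in control. DIAPH1 had 1 heat and 3 control peaks, and its 3′-most region, of 1984 bases, 140894592 to 140896575 on chromosome 5, was in the control list only (fold 33.3, score 532). DIAPH3 was in the control list only, with folds of 74.8 and 32.0 at scores of 190 and 76.6. Between the heat peaks that flank them 22 numbers were not listed.

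**Figure D3:**
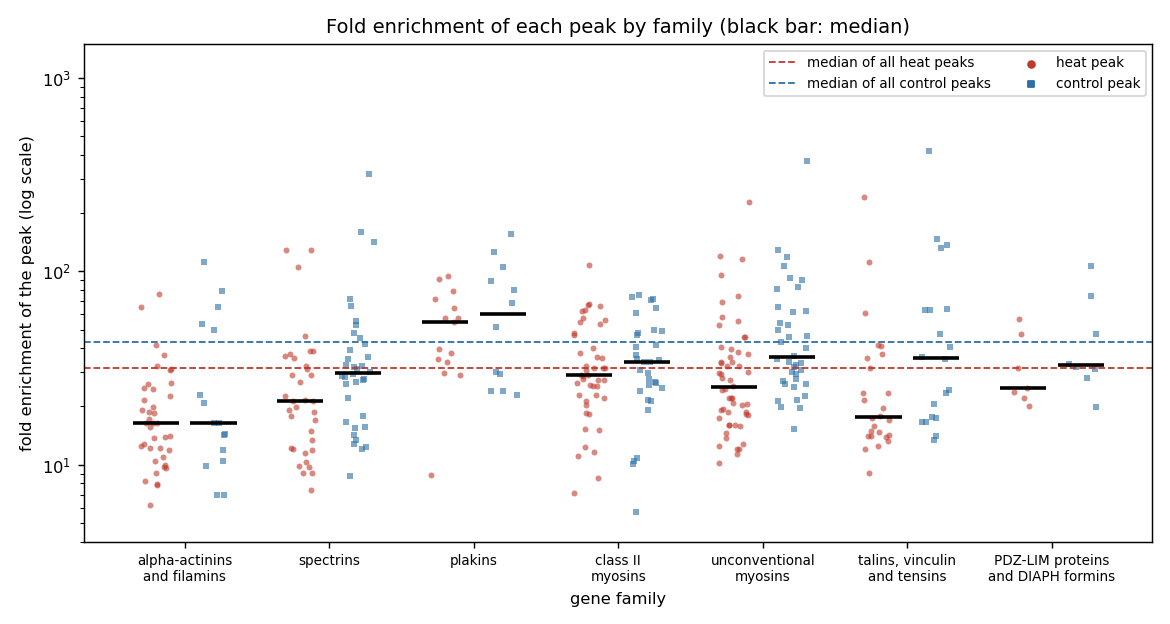
Fold enrichment over the caller's background (vertical log axis) of every listed peak of the 35 genes by family (horizontal axis), red circles for heat and blue squares for control, with a black bar at the median of each and dashed lines at the median of all heat peaks (31.6) and all control peaks (43.3). Alpha-actinins and filamins have the lowest medians in both lists, 16.4 in each, and plakins the highest, 54.6 and 59.9.

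The peaks of these genes were short and of low fold for their lists. The median length was 192 bases in heat and 211 in control, against 417 and 537 over all peaks, and 73% of the heat and 64.8% of the control peaks were shorter than 300 bases, against 42.2% and 35.1%. The median fold was 24.0 in heat and 32.5 in control, against 31.6 and 43.3. The scores did not share this pattern: the medians were 227 in heat and 270 in control, against 203 and 267. A peak at or past the ceiling was present in 10 genes (28.6%) in heat and 11 genes (31.4%) in control, where 7.88% and 16.0% of all genes had one. No peak scores under 50 in either list, and the weakest peaks of the set scored 50.4 in heat and 50.3, in SPTAN1, in control.

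Sharing was unequal between the lists. Of the 222 heat peaks 127 (57.2%, 95% Wilson interval 50.6 to 63.5, which covers the counting of peaks only) overlapped a control peak, beside 66.7% of all heat peaks. Of the 162 control peaks the same 127 (78.4%, 71.4 to 84.0) overlapped a heat peak, beside 71.7%. At the authors' threshold the set thus had a lower share than its list in heat and a higher one in control. Both shares rest on the same 127 pairs, set against 222 and 162 peaks. Their difference therefore restates the surplus of heat peaks and is no separate result. With folds above 36.5 the order between the lists turned: 57.6% of the set's heat peaks and 50.7% of its control peaks were shared, beside 63% and 47.6% of all such peaks. Where peaks were shared they were nearly always the same region: 117 of the 127 pairs had identical start and end, which is 52.7% of the heat and 72.2% of the control peaks, beside 43.8% and 47.2% over all. The 10 pairs that differed lay in DST, MYH10, MYO10, MYO6, MYO9A, SPTBN1, TNS1 and TNS3. In 20 pairs, from 10 genes, both peaks were at the ceiling.

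The 95 heat-only peaks were weaker than the shared ones, with a median fold of 18.7 and score of 122, against 29.1 and 404 for the 127 shared heat peaks. The 35 control-only peaks had a median fold of 31.2 and score of 84.8, against 33.8 and 364 for the shared control peaks. Single-list peaks were weaker over all genes too. There the heat-only medians were 25.5 and 104, against 36.7 and 324 for shared heat peaks. The control-only medians were 34.7 and 106, against 50.1 and 443. The caller's false discovery rate was listed at 100% for 66 of the 95 (69.5%) and 28 of the 35 (80%), beside 79% and 79.7% of all single-list peaks. Shared peaks had this limit too: 45 heat peaks (35.4%) and 52 control peaks (40.9%) of the 127 pairs stood at 100%, beside 40.3% and 36.1% of all shared peaks. In the whole set the rate was 100% for 111 of 222 heat and 80 of 162 control peaks (50% and 49.4%, beside 53.2% and 48.5%). The lowest rate of any listed peak was 20.6% in heat and 8.22% in control. Both lists were split by score into 4 bins of equal size, since weak peaks were shared less often. From the highest to the lowest bin of the heat list, 87.9%, 61%, 37.3% and 38.9% of the set's peaks were shared, beside 93%, 75.1%, 58.1% and 40.4% of all peaks, so that the gap lay in the 3 upper bins and was small in the lowest. In the control list the shares were 97.7%, 84.2%, 68.8% and 63.3%, beside 95.8%, 82.8%, 63.6% and 44.8%. Of the 95 heat-only peaks MYH14 and MYH9 had 8 each and ACTN4 had 7. For 94 of the 95 heat-only peaks (98.9%) at least 1 control peak number between the listed neighbours was unlisted, near the 96.5% of all heat-only peaks, with a median of 5 such numbers beside 6. For 29 of the 35 control-only peaks (82.9%, beside 96.7%) at least 1 heat number was unlisted, and the median over those 29 was 4, beside 6. No heat number was free between the listed neighbours of 6 control-only peaks (17.1%, beside 3.29% of all control-only peaks). These counts take peak numbers to follow position. Whether a listed region is the whole of a called peak was not tested, so a heat peak at those 6 places is not excluded.

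**Figure D4:**
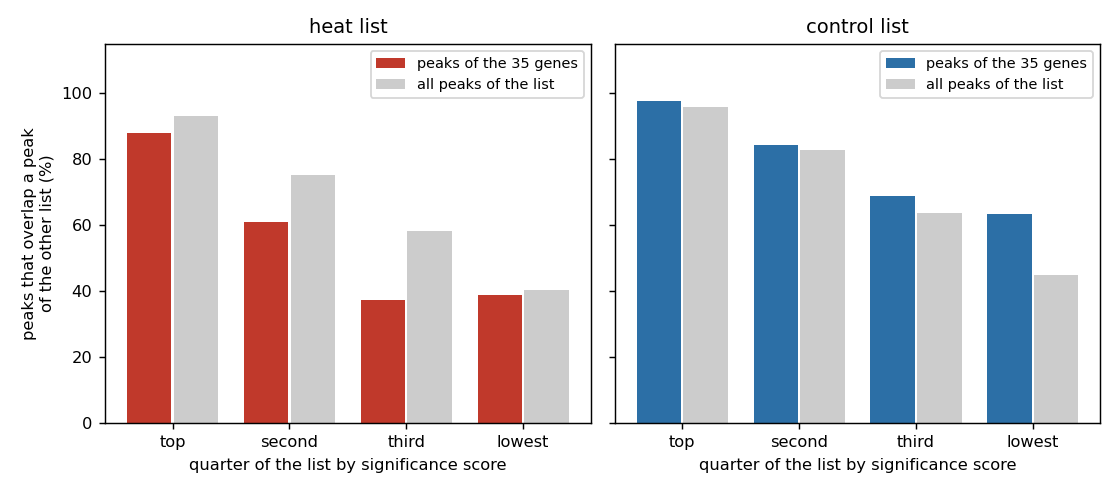
Share of peaks that overlap a peak of the other list (vertical axis, %), for peaks of the 35 genes (coloured bars) and for all peaks of the list (grey bars), by bin of the list's significance score, 4 bins of equal size from top to lowest (horizontal axis), with the heat list on the left and the control list on the right. In heat the coloured bars lie below the grey ones in every bin, and in control they lie above them. The coloured bars of both panels count the same 127 shared pairs, so the panels are not separate results.

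Along the transcripts most heat-only regions were inner ones, lying between the first and the last listed region of the gene. Strand was taken from the RefSeq promoter table for the 29 genes it lists, and 22 of these had at least 3 regions, as did 1946 genes of all those listed. Of the 161 inner regions 60 (37.3%) were in heat only, 13 (8.07%) in control only and 88 (54.7%) in both, beside 31.4%, 17.4% and 51.3% of the inner regions of those genes. At the 5′ end the order was turned: of the 22 first regions 5 (22.7%) were in heat only and 9 (40.9%) in control only, beside 33.7% and 21.3%. The control-only first regions lay in DIAPH1, MYH10, MYH9, MYO10, MYO1E, MYO5B, MYO6, PDLIM5 and SPTAN1. Of the 22 last regions 16 (72.7%) were in both lists, beside 66.9%. The longest region was the last in 14 genes (63.6%, beside 65.4%), but the region with the best heat score was the last in 3 genes only (13.6%, beside 43.6%), namely MYH9, TNS1 and TNS3. In control it was the last in 7 of the 20 genes with a control peak and 3 regions (35%, beside 49.1%). MYH9 is counted in both lists on a tie, as 8 of its heat and 6 of its control regions were at the ceiling. Its last region did not have the highest fold among them, with 37.8 against 62.3 in heat and 36.9 against 60.9 in control.

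Several pairs of related genes had regions of equal length, mostly in the same order. ACTN1 and ACTN4 shared 7 region lengths (82, 87, 88, 93, 120, 148 and 231 bases), and all 7 followed one another in the same order along both genes. MYH9 and MYH14 shared 11 lengths, all in order, and MYH9 and MYH10 shared 4, all in order. MYH10 and MYH14 shared 5, of which 4 were in order. How many equal lengths unrelated genes share was not tested. MACF1 and DST shared the lengths 496 and 1472. No length was shared between TNS1 and TNS3, TLN1 and TLN2, or MYO9A and MYO9B. Whether these boundaries are those of exons was not tested, since no transcript model of the files' build was used here. The state of a region was not always the same in both genes of a pair. The region of 93 bases was in both lists in ACTN1 (folds 30.9 in heat and 9.79 in control) and in heat only in ACTN4 (fold 18.5). The region of 88 bases was in heat only in ACTN1 (fold 16.4) and in both lists in ACTN4 (12.2 in heat and 7.01 in control). The region of 124 bases was in heat only in MYH9 (fold 53.5), also in heat only in MYH10 (fold 18.5) and in both lists in MYH14 (57.2 in heat and 46.9 in control).

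Genes that work with these proteins were taken from 5 lists of 178 genes, and 116 had a peak. Of these, 16 (13.8%) were in heat only and 10 (8.62%) in control only, beside 13.2% and 13.5% of all listed genes. They held 326 heat and 268 control peaks, and of the 90 genes in both lists 35 (38.9%) had more under heat, 21 (23.3%) fewer and 34 (37.8%) equally many, beside 25.0%, 20.6% and 54.3% of all genes in both lists. Of the 29 listed genes for actin monomers and filament nucleation 11 (37.9%) were in heat only and 3 (10.3%) in control only, beside the same 13.2% and 13.5%. Among the heat-only genes were WASF2, a subunit of the WAVE complex that starts branched actin growth, with 6 peaks and a best fold of 29.9, NCKAP1, another WAVE subunit, with 3 peaks and a best fold of 59.9, and ACTG1 and PFN1, for cytoplasmic gamma actin and profilin, with 1 peak each and best folds of 14.1 and 8.08. ARPC5, of the Arp2/3 complex, was in control only with a fold of 57.5. ACTB, beta actin, had 1 peak in each list, with a score of 631 in heat and the ceiling in control.

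Other actin bundlers and side binders had 25 listed genes with 73 heat and 61 control peaks, and of the 20 in both lists 8 had more, 2 fewer and 10 equally many. Supervillin, SVIL, had 13 heat and 6 control peaks. Myosin light chains with their kinases and phosphatases had 21 listed genes with 66 heat and 54 control peaks, and of the 19 in both lists 8 had more, 7 fewer and 4 equally many. CDC42BPB, a kinase that acts on myosin, had 18 heat and 9 control peaks, while ROCK1, a kinase with the same target, was in control only with 1 peak. Focal adhesion partners had 26 listed genes with 72 heat and 59 control peaks, and of the 23 in both lists 10 had more, 5 fewer and 8 equally many. Paxillin, PXN, had 7 heat peaks and 1 control peak. Spectrin and plakin partners had 15 listed genes with 56 heat and 52 control peaks, and of the 13 in both lists 5 had more, 3 fewer and 5 equally many. PPL, periplakin, had 5 heat and 10 control peaks. Over all genes in both lists 25.0% had more, 20.6% fewer and 54.3% equally many. The median difference per gene was 0 in each of these lists. SVIL, CDC42BPB, PXN and PPL had large differences and do not stand for their lists.

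Markers of the labelled epithelial cell type were listed for 11 of 14 genes, with 38 heat and 13 control peaks. Of these 11 genes, 6 were in heat only, none in control only and 5 in both. The shares over all listed genes were 13.2%, 13.5% and 73.4%. KRT6A, KRT18 and KRT19 had no listed peak, which says nothing of their RNA. Of 17 muscle markers ACTA2 and TNNT1 had a peak, in both lists, and DES, TTN and MYOD1 had none; of 6 blood markers none had one. The surplus of heat peaks in epithelial markers had the same direction as that of the actin genes, and its part in the result was not tested. The whole heat list was also longer than the control list, with lower folds, and the depth of the libraries is unknown.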

How the data were processed

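The deposited files are 1 list of m6A peaks per condition, called by the authors from 1 antibody library and its input; the input libraries have no list of their own. The submitters' processing notes name cutadapt 1.9.3, STAR and the build hg19. Peak names begin with MACS, and no settings are stated. Per the file headers, each score is the negative log10 of a p-value, multiplied by 10; no listed score is under 50, which stands for a p-value of 1e-05, and the scale levels off at 3100. Fold enrichment is the authors' ratio of signal over the caller's background, per the file headers, and the false discovery rate is deposited in percent. Peak numbers run to 64647 in heat and 58312 in control, so 23.9% and 24.6% of numbers are listed. No total of reads is given, so depth is unknown. Files give no strand; 1 line of the heat list was empty and not used.

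From these, peaks were counted per gene symbol, and a peak was called shared if it overlapped a peak of the other list by at least 1 base. Starts were turned to 1-based. The search for overlaps was tested on simulated lists. All 35 gene identifiers were found in RefSeq. Python 3.11.15, pandas 2.3.3, numpy 2.4.6 and scipy 1.17.1 were used.

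The genes, the partner and marker lists and the rule for naming genes were chosen with earlier results of these data known. Named were genes in 1 list only, genes differing by at least 3 peaks, the 8 with the most peaks, the 5 with the best sum of ranks, the 2 with the most peaks in each family, and partners by score in 1 list or both; single regions and a few partners were picked after their values were seen. The alternatives were 5 stricter peak thresholds, 2 overlap rules, covered bases in place of peaks, rank by fold, and leaving out muscle genes. A few genes that the rule names are not reported here singly. GGACT content was not computed, as no sequence of the peaks was used here.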

Additional observations from a re-analysis of the deposited data

How the results depend on the processing

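The choice that mattered most was the threshold on fold. With peaks of a fold above 36.5 the set had 5 genes in control only (1 at the authors' threshold) and 19 in both lists (29), 50.7% of its control peaks were shared (78.4%), the sum of heat minus control peaks was -8 (60), and 3 genes had more and 10 fewer heat peaks (18 and 6). MYO9B turned to -1. The fold levels of the heat list are lower, so this setting keeps 6405 heat and 8488 control peaks in all. With a score above 227.67 there were 4 genes in control only, a sum of 24 and 10 genes with more. The top 14367 peaks of each list gave 2 genes in control only. The top 7183 of each gave 4 in control only, a sum of 29 and 10 with more, and a false discovery rate under 100% gave the same 4, 29 and 10. By covered bases 71.7% of the heat bases were shared and 11 genes had fewer bases under heat. Of the set's summaries 35 stayed within the limits set for a move, 17 moved and 1 reversed. Of the values for single genes 23 stayed, 21 moved and 1 reversed. For shares of peaks the limits were the Wilson interval, which treats peaks as independent. Both overlap rules gave 57.2% and 78.4% again, but 117 of the 127 shared pairs had identical boundaries and could not fail them. Leaving out muscle genes removed MYH7B alone. These settings could change little, and they are among the summaries counted as having stayed. The median percentile of the genes' best peaks was 80.5 in heat and 83.5 in control by score, and 77.8 and 76.1 by fold. The GGACT content and its alternatives were not run, because no sequences were used here. No paired analysis was possible because each condition has 1 antibody library. Single-culture libraries and unknown depth limit every count: a difference of a few peaks cannot be told apart from one between any 2 libraries.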

Other observations

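The annotation terms in the files place part of the set in larger structures. Of the genes annotated to stress fibres, the contractile actin bundles, 9 belong to the set, and these had 88 heat and 48 control peaks. Of these, 7 were in both lists and each of the 7 had more heat peaks, beside 25.0% of all 6030 genes in both lists. The 28 other listed genes of that term had 82 heat and 70 control peaks, and of the 22 in both lists 9 had more, 8 fewer and 5 equally many. For the focal adhesion pathway, the 8 genes of the set, among them ACTN1, ACTN4, TLN1 and VCL, had 48 heat and 21 control peaks, and the 75 others 210 and 160. Of the set's 6 genes in both lists 4 had more heat peaks, 1 fewer and 1 equally many. Among the 57 others in both lists these numbers were 22, 12 and 23. For the tight junction pathway, the 7 genes of the set had 73 heat and 49 control peaks, and the 53 others 173 and 159. All 7 were in both lists, 6 with more heat peaks and 1 with equally many. Of the 47 others in both lists 16 had more, 6 fewer and 25 equally many. These terms overlap each other and share the genes with the most peaks, so they are 1 set of values seen from several sides.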
